A study of Mus musculus with 8 samples.

Results

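The pro-apoptotic members of the BCL2 family were followed through a 24 h drug treatment of lymphoma cells. The set held 10 listed genes, Bbc3, Pmaip1, Bcl2l11, Bmf, Bad, Bid, Bik, Bax, Bak1 and Hrk, and was taken as every array probe that the platform annotation assigns to one of these symbols, with no choice of 1 probe per gene. Such probes existed for 9 of the 10 genes, 16 probes in all, among 25697 probes of 16593 named genes on the array. Of these 16 probes, 15 probes of 8 genes passed the detection filter and were tested, out of 11761 probes of 7947 named genes tested in all. The Hrk probe was detected on 0 of 8 arrays, and Bax had no listed probe and was not analysed here.

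The cells were λ820, 1 mouse lymphoma line driven by Myc, and all groups therefore shared that oncogene and that genetic background. They were cultured for 24 h with 10 µM RVX2135 and 10 µM VE-821 together, with 10 µM RVX2135 alone, with 10 µM VE-821 alone, or with the solvent DMSO at a 1000-fold dilution. RVX2135 inhibits the BET bromodomain proteins that read acetylated histones, and VE-821 blocks ATR, a kinase of the checkpoint that guards DNA replication. Each of the 4 groups had 2 one-colour Illumina arrays, 1 per RNA sample, and since no label says that the replicates were separate cultures, every p-value reflects a spread between samples that could be technical alone.

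BCL2 family proteins decide whether the outer membrane of the mitochondrion stays intact. The effectors BAX and BAK form the pores through which cytochrome c escapes, survival members such as BCL2 and MCL1 hold the effectors in check, and the BH3-only proteins bind the survival members, the effectors or both and so set off cell death. In Myc-driven B lymphomas of mice, BH3-only genes such as Bcl2l11 and Bbc3 are known to act as brakes on tumour growth.

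Between 11012 and 11478 probes were detected per array, and the log2 intensities of the 2 arrays of a group correlated at 0.994 to 0.996. The median SE of a log2 change between 2 groups was 0.12. Of the B-lineage markers, Cd79a, Cd79b, Ebf1, Cd22 and Blnk were detected on all 8 arrays, whereas the probes of Ms4a1 and Pax5 were detected on 0 arrays and Ighm and Igll1 had no listed probe. The summed B-lineage intensity over 9 genes, in the authors' normalized units, was 585 to 607 with both drugs, 2459 to 2828 with RVX2135, 2311 to 2816 with VE-821 and 5393 to 5555 with DMSO. For 9 T and NK cell markers the same sum was 3.02 to 8.08 with both drugs and 44.1 to 46.1 with DMSO. With RVX2135 it was 18.2 to 18.4, and with VE-821 it was 17.2 to 24.3. The sum lay between -19.1 and 18.2 over all arrays for 8 myeloid markers, and between -7.91 and 9.10 for 7 markers of stroma and endothelium. For 6 markers of erythroid cells and platelets the sum was 18.7 to 24.4 with both drugs and 4.55 to 8.80 with DMSO. With RVX2135 that sum was 7.58 to 16.6, and with VE-821 it was 14.7 to 16.4. The B-lineage sum and the T and NK cell sum fell with each single drug and were lowest with the combination, where the erythroid sum was highest. Per array, only 0 to 3 of the 9 T and NK cell genes and 0 to 2 of the 6 erythroid genes were detected. Those 2 sums therefore lie near background. The part of these sums in the results was not tested. In bulk RNA, fewer cells of a type and less RNA per cell cannot be told apart.

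RefSeq promoter windows of the GRCm38.p6 build, from 250 bases before to 50 bases after a transcript start, were at hand for 8 of the 10 genes, with 14 windows in all. They were searched on both strands for the forkhead motif GTAAACA, the E-box CACGTG and the core TGATGNAA of the element bound by ATF4 and CHOP, because FOXO, Myc and ATF4 with CHOP are known to act on genes of this family. The forkhead motif was in 1 window each of Bbc3 and Bcl2l11, which are printed here because both genes changed and because FOXO factors are known to drive both. The Bbc3 window is chr7:16310011-16310310 on the plus strand, with the motif 167 bases before the start and on the opposite strand. The Bcl2l11 window is chr2:128125788-128126087 on the plus strand, with the motif 227 bases before the start. Capitals mark the motif as it reads on the printed strand, 5′ to 3′.
Bbc3: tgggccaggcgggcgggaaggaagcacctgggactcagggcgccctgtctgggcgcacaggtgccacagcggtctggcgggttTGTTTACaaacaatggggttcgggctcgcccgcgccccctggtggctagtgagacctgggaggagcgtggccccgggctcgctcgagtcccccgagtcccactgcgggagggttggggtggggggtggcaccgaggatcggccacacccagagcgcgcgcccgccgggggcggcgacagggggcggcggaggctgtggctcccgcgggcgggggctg
Bcl2l11: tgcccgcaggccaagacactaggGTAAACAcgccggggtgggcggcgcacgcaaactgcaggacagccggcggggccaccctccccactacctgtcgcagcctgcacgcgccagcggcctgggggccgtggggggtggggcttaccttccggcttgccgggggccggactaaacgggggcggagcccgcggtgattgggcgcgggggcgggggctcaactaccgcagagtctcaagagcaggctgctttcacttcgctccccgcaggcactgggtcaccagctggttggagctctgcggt
The forkhead motif is in 3.65% of all 32851 windows of the table, the E-box in 7.15% and the ATF4 and CHOP core in 3.97%. The E-box was in another Bbc3 window and, in 2 places, in the Bax window, and the ATF4 and CHOP core was in the Hrk window. None of these letters were found in the windows of Bmf, Bad, Bid or Bak1, and a match describes the sequence only.

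**Figure D1:**
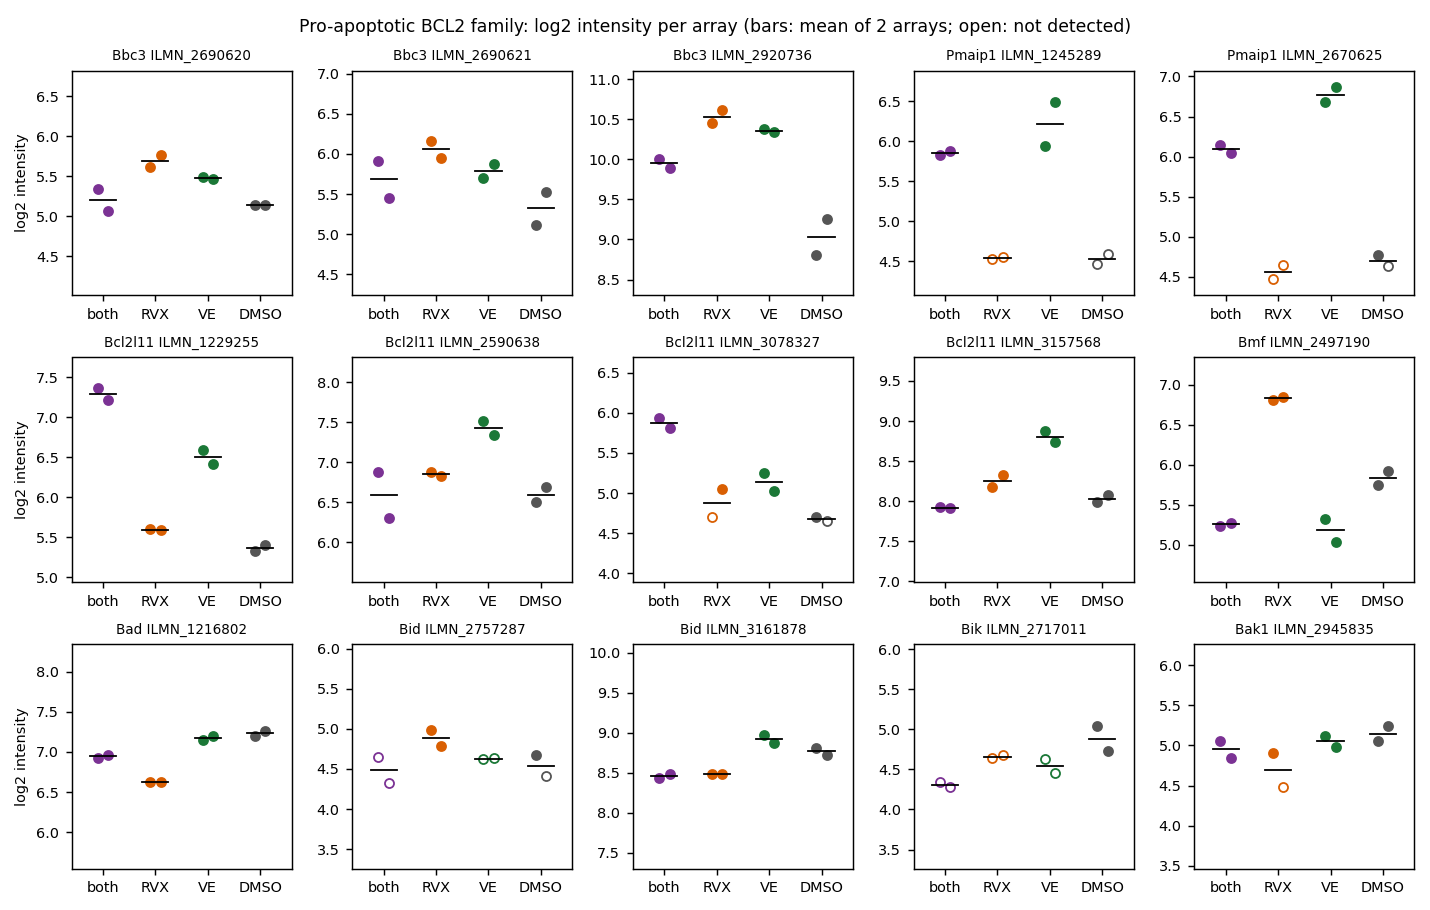
Normalized log2 intensity (y axis) of each of the 15 tested probes on each of the 8 arrays, by treatment (x axis: both drugs, RVX2135, VE-821, DMSO). Bars are means of 2 arrays and open circles are arrays on which the probe was not detected. Bcl2l11 probe ILMN_1229255 is highest with both drugs, the Pmaip1 probes with VE-821, and the Bmf probe with RVX2135.

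Bcl2l11 encodes BIM, a BH3-only protein that binds every major survival member and can also activate BAX and BAK. Its 4 probes gave 2 patterns. Probe ILMN_1229255 read 7.36 and 7.22 (log2 intensity, replicates 1 and 2) with both drugs, 5.60 and 5.59 with RVX2135, 6.59 and 6.42 with VE-821, and 5.33 and 5.40 with DMSO. Both arrays with the combination lay above all others, and both arrays with VE-821 lay above those with RVX2135 or DMSO. This probe rose 3.79-fold with both drugs relative to DMSO (log2 change 1.92, SE 0.11, adjusted p = 5.71e-08 in limma) and 2.20-fold with VE-821 (log2 change 1.14, adjusted p = 2.37e-05). The change with RVX2135 was 0.23 (adjusted p = 0.139). The combination was also higher than VE-821 alone, by 0.78 (adjusted p = 0.000127).

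Probe ILMN_3078327 read 5.93 and 5.81 with both drugs, 4.70 and 5.05 with RVX2135, 5.24 and 5.03 with VE-821, and 4.70 and 4.65 with DMSO. It was detected on 1 of 2 arrays with RVX2135 and with DMSO, and passed the filter through the other groups. Both combination arrays stood above all others, and the VE-821 arrays overlapped those with RVX2135. The rise with both drugs was 2.29-fold (log2 change 1.19, SE 0.13, adjusted p = 1.33e-05), and the combination exceeded VE-821 by 0.73 (adjusted p = 0.000838) and RVX2135 by 1.00 (adjusted p = 9.6e-05). The rise of 0.46 with VE-821 alone (adjusted p = 0.0307) was lost when either DMSO or either VE-821 array was left out, at adjusted p = 0.101 and 0.126 without DMSO replicates 1 and 2, and 0.184 and 0.0533 without VE-821 replicates 1 and 2.

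The other 2 Bcl2l11 probes were called with VE-821 but not with the combination relative to DMSO. Probe ILMN_3157568 read 7.92 and 7.92 with both drugs, 8.18 and 8.33 with RVX2135, 8.87 and 8.73 with VE-821, and 7.99 and 8.07 with DMSO. Probe ILMN_2590638 read 6.88 and 6.30 with both drugs, 6.87 and 6.83 with RVX2135, 7.51 and 7.33 with VE-821, and 6.50 and 6.69 with DMSO. On both of these probes the VE-821 arrays were the highest, and on the second the combination arrays spanned the DMSO arrays. With VE-821 they rose by 0.77 (SE 0.11, 1.70-fold, adjusted p = 0.000459) and 0.83 (SE 0.17, adjusted p = 0.00467). The VE-821 call on ILMN_2590638 was lost with quantile normalization alone, without background correction (adjusted p = 0.0666). With both drugs the changes from DMSO were -0.11 (adjusted p = 0.389) and -0.00 (adjusted p = 0.989).

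The disagreement was therefore one of direction between the combination and VE-821 alone. There, 2 Bcl2l11 probes were called higher, by 0.78 and 0.73, and the other 2 were called lower, with changes of -0.88 (adjusted p = 4.97e-05) and -0.83 (adjusted p = 0.00154). Between the combination and RVX2135, 2 probes were higher, 1 was lower and 1 was not called. The lower call there, -0.34 on ILMN_3157568 (adjusted p = 0.0225), was lost without RVX2135 replicate 2 (0.137), RVX2135+VE-821 replicate 1 (0.0687) or RVX2135+VE-821 replicate 2 (0.0717). Over the 8 arrays, as a description, ILMN_1229255 and ILMN_3078327 correlated at 0.948 and ILMN_3157568 and ILMN_2590638 at 0.905, against -0.01 for ILMN_1229255 with ILMN_3157568. The annotation places ILMN_1229255, ILMN_3078327 and ILMN_3157568 on the same RefSeq transcript and ILMN_2590638 on another, so the patterns do not follow that assignment. In all 4 probes the call was the same for VE-821 against DMSO, a rise, and for RVX2135 against DMSO, no call. The VE-821 level exceeded the RVX2135 level on 3 probes, with RVX2135 minus VE-821 at -0.91 (adjusted p = 0.000132), -0.55 (adjusted p = 0.00363) and -0.57 (adjusted p = 0.0275). The last, on ILMN_2590638, was lost without RVX2135 replicate 1 (0.087) or 2 (0.118) or without VE-821 replicate 1 (0.151) or 2 (0.0563), and with quantile normalization alone (0.149).

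**Figure D2:**
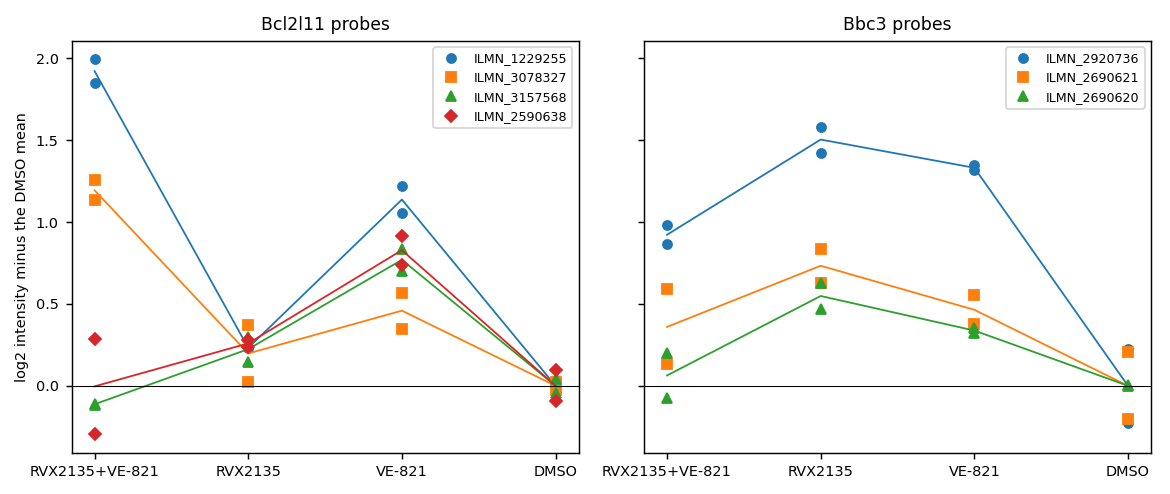
Log2 intensity minus the probe's DMSO mean (y axis) for the 4 Bcl2l11 probes (left) and the 3 Bbc3 probes (right) in each treatment group (x axis), with 1 point per array and lines through the group means. With both drugs, 2 Bcl2l11 probes sit 1.92 and 1.19 above DMSO and 2 sit at -0.11 and -0.00, whereas the 3 Bbc3 probes keep the same order of groups at different sizes.

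Bbc3 encodes PUMA, a BH3-only protein that binds all major survival members. It rose with RVX2135 on all 3 of its probes, and with VE-821 and with both drugs on 1 of the 3. Probe ILMN_2920736 read 10.01 and 9.89 with both drugs, 10.45 and 10.61 with RVX2135, 10.37 and 10.35 with VE-821, and 8.80 and 9.25 with DMSO. All 6 drug arrays lay above both DMSO arrays, and both combination arrays lay below the 4 single-drug arrays. The rise was 1.90-fold with both drugs (log2 change 0.92, SE 0.14, adjusted p = 0.000165), 2.84-fold with RVX2135 (1.50, adjusted p = 2.6e-05) and 2.52-fold with VE-821 (1.33, adjusted p = 5.62e-05).

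In order of level on this probe, RVX2135 and VE-821 came first and did not differ beyond their spread (0.17, SE 0.14, adjusted p = 0.413), then the combination, then DMSO. The combination was lower than RVX2135, with a log2 change of -0.58 (adjusted p = 0.0053). Its difference from VE-821, -0.41 (adjusted p = 0.0327), was lost without RVX2135+VE-821 replicate 1 (0.0584) or 2 (0.139), without VE-821 replicate 1 (0.115) or 2 (0.0893), without a filter on dim probes (0.0936) and with quantile normalization alone (0.11).

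The other Bbc3 probes had the same order of group means and smaller changes. Probe ILMN_2690621 read 5.91 and 5.45 with both drugs, 6.16 and 5.95 with RVX2135, 5.70 and 5.88 with VE-821, and 5.12 and 5.53 with DMSO. Probe ILMN_2690620 read 5.34 and 5.07 with both drugs, 5.61 and 5.77 with RVX2135, 5.49 and 5.46 with VE-821, and 5.14 and 5.14 with DMSO. On both, the arrays with the combination overlapped the DMSO arrays. With RVX2135 all 3 Bbc3 probes rose, these by 0.73 (SE 0.17, adjusted p = 0.00817) and 0.55 (SE 0.12, adjusted p = 0.00523). Relative to RVX2135 the combination was lower on ILMN_2690620, at -0.49 (adjusted p = 0.00511), but was not called on ILMN_2690621, at -0.37 (adjusted p = 0.0911). Relative to VE-821 the combination was not called on either probe, unlike on ILMN_2920736. It was at -0.10 on ILMN_2690621 (adjusted p = 0.639) and -0.27 on ILMN_2690620 (adjusted p = 0.0741). With both drugs (0.36 and 0.06, adjusted p = 0.0909 and 0.664) and with VE-821 (0.46 and 0.34, adjusted p = 0.0763 and 0.0631) these 2 probes were not called where ILMN_2920736 was. Their VE-821 arrays did lie above both DMSO arrays. The VE-821 rise was called on ILMN_2690620 when only probes detected on all arrays were kept (0.0476). On ILMN_2690621 it was called with a variance trend (0.0464). Most alternatives left it uncalled on both. The RVX2135 call on ILMN_2690621 was lost without DMSO replicate 1 (0.084) or RVX2135 replicate 1 (0.0611), and also without a filter on dim probes (0.0504) and with quantile normalization alone (0.0815).

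Bid encodes a BH3-only protein that caspase-8 cleaves to carry a death receptor signal to the mitochondrion. Probe ILMN_3161878 read 8.43 and 8.49 with both drugs, 8.49 and 8.49 with RVX2135, 8.97 and 8.87 with VE-821, and 8.81 and 8.72 with DMSO. On this probe both groups with RVX2135 lay below both groups without it. The combination was lower than VE-821, at -0.46 (SE 0.10, adjusted p = 0.00317), and RVX2135 was lower than VE-821, at -0.43 (adjusted p = 0.00983, or 0.0765 without VE-821 replicate 1). Relative to DMSO the combination was called lower at -0.31 (adjusted p = 0.0227), and that was lost without DMSO replicate 1 (0.127), DMSO replicate 2 (0.0506) or RVX2135+VE-821 replicate 1 (0.0904). RVX2135 alone was at -0.28 relative to DMSO (adjusted p = 0.0612), and this was called under 5 alternative settings, at 0.02 to 0.0455. The other Bid probe, ILMN_2757287, lay between 4.33 and 4.98 and was detected on 3 of 8 arrays, both of RVX2135 and 1 of DMSO. On it the combination was not called relative to DMSO (adjusted p = 0.765 in limma) or VE-821 (0.44), unlike on ILMN_3161878. Relative to RVX2135 the combination was not called on ILMN_3161878, at -0.03 (adjusted p = 0.858), unlike on ILMN_2757287. The Bid probes went opposite ways with RVX2135 alone, where ILMN_2757287 was at its highest, 0.34 relative to DMSO (adjusted p = 0.0852) and 0.26 relative to VE-821 (adjusted p = 0.2), neither of them called. It passed the filter through the RVX2135 group, so its call in the combination relative to RVX2135 (at least 1.15-fold lower, adjusted p = 0.0328) rests on a group that had to be bright. That call was lost without RVX2135 replicate 1 (0.184) or RVX2135+VE-821 replicate 2 (0.235).

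Pmaip1 encodes NOXA, a BH3-only protein that binds MCL1 and BCL2A1 and promotes the breakdown of MCL1. It rose wherever VE-821 was present. Probe ILMN_2670625 read 6.14 and 6.05 with both drugs, 4.47 and 4.65 with RVX2135, 6.68 and 6.87 with VE-821, and 4.77 and 4.63 with DMSO. It was above background on all arrays with VE-821, on 1 of 2 DMSO arrays and on 0 of 2 RVX2135 arrays. The 4 arrays with VE-821 lay above the other 4, and VE-821 alone lay above the combination. The rise was 2.63-fold with both drugs (log2 change 1.39, SE 0.12, adjusted p = 1.43e-06) and 4.20-fold with VE-821 (2.07, adjusted p = 4.67e-07).

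With RVX2135 alone this Pmaip1 probe stood at -0.14 relative to DMSO (adjusted p = 0.415). The combination was at least 2.63-fold higher than RVX2135 (adjusted p = 1.5e-06), and RVX2135 was at least 4.20-fold lower than VE-821 (adjusted p = 2.28e-07). Such bounds set the bright group's mean against the lowest signal that counted as detected where both arrays of the other group were below background. The combination was 1.60-fold lower than VE-821 (log2 change -0.68, adjusted p = 0.000604).

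The second Pmaip1 probe, ILMN_1245289, read 5.83 and 5.87 with both drugs, 4.53 and 4.56 with RVX2135, 5.94 and 6.49 with VE-821, and 4.47 and 4.60 with DMSO. Both RVX2135 and both DMSO arrays were below background, so no fold is given between these groups. Relative to DMSO it was at least 2.28-fold higher with both drugs (adjusted p = 1.9e-05) and at least 2.94-fold higher with VE-821 (adjusted p = 1.6e-05). The probes of Pmaip1 disagreed on the combination against VE-821, where ILMN_1245289 was at -0.37 and not called (adjusted p = 0.068). Without VE-821 replicate 1 that difference was called (adjusted p = 0.00362). Both Pmaip1 probes passed the filter only through the groups with VE-821, so they had to be bright there to be tested at all.

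Bmf encodes a BH3-only protein held at the cytoskeleton by dynein light chains. It went in opposite directions with the single drugs. Its probe ILMN_2497190 read 5.24 and 5.28 with both drugs, 6.81 and 6.84 with RVX2135, 5.33 and 5.03 with VE-821, and 5.75 and 5.93 with DMSO. RVX2135 gave the highest arrays, DMSO came next, and the arrays of the combination and of VE-821 overlapped below them. Bmf rose 1.99-fold with RVX2135 (log2 change 0.99, SE 0.12, adjusted p = 0.000161). It fell by 0.58 on the log2 scale with both drugs (1.49-fold lower, adjusted p = 0.00164) and fell by 0.66 with VE-821 (1.58-fold lower, adjusted p = 0.00307). RVX2135 exceeded VE-821 by 3.14-fold (adjusted p = 3.53e-06), and the combination was 2.97-fold lower than RVX2135 (adjusted p = 1.67e-06). The combination and VE-821 alone were not told apart (0.08, SE 0.12, adjusted p = 0.619).

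Bad encodes a BH3-only protein that 14-3-3 proteins hold in the cytosol once it is phosphorylated. Its probe ILMN_1216802 read 6.92 and 6.97 with both drugs, 6.62 and 6.62 with RVX2135, 7.15 and 7.20 with VE-821, and 7.20 and 7.26 with DMSO. The RVX2135 arrays were the lowest and the combination lay between them and the others. Bad fell by 0.61 with RVX2135 relative to DMSO (1.53-fold lower, SE 0.10, adjusted p = 0.00102), and RVX2135 was 1.47-fold lower than VE-821 (adjusted p = 0.00202). VE-821 stood at -0.06 relative to DMSO (adjusted p = 0.718). The change of -0.29 with both drugs (adjusted p = 0.0266) was lost without DMSO replicate 1 (0.065) or 2 (0.126) or without RVX2135+VE-821 replicate 1 (0.097) or 2 (0.0583). The rise of 0.32 over RVX2135 alone (adjusted p = 0.0181) was lost without RVX2135 replicate 1 (0.0628) or 2 (0.0618) or RVX2135+VE-821 replicate 2 (0.0701).

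Bik encodes a BH3-only protein of the endoplasmic reticulum. Its probe ILMN_2717011 read 4.34 and 4.28 with both drugs, 4.64 and 4.68 with RVX2135, 4.63 and 4.46 with VE-821, and 5.04 and 4.73 with DMSO. It was detected on the 2 DMSO arrays alone and passed the filter through them. Relative to DMSO it was at least 1.15-fold lower with both drugs (adjusted p = 0.00177, or 0.305 with quantile normalization alone, where the log2 change was -0.06), while its change with either single drug was not called (adjusted p = 0.2 with RVX2135 and 0.072 with VE-821). Relative to RVX2135 the combination was called lower (adjusted p = 0.0342) with both groups below background, so no fold is given, and the call was lost without either array of either group, at 0.0735 to 0.117, and under 4 other settings. Hrk, a BH3-only gene known mainly from neurons, had intensities of 4.19 to 4.29 and was not above background in any group.

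Bak1 encodes BAK, the effector that resides on the mitochondrion. Its probe ILMN_2945835 read 5.06 and 4.85 with both drugs, 4.91 and 4.48 with RVX2135, 5.12 and 4.98 with VE-821, and 5.05 and 5.24 with DMSO. The combination and VE-821 overlapped with DMSO, and were not called (adjusted p = 0.278 and 0.693). With RVX2135 it was detected on 1 of 2 arrays and was called lower at -0.45 (SE 0.15, adjusted p = 0.0408). That call was lost without DMSO replicate 1 (0.0676) or 2 (0.201), RVX2135 replicate 2 (0.317), VE-821 replicate 1 (0.0512) or 2 (0.0514), and under 4 other settings at up to 0.183.

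**Figure D3:**
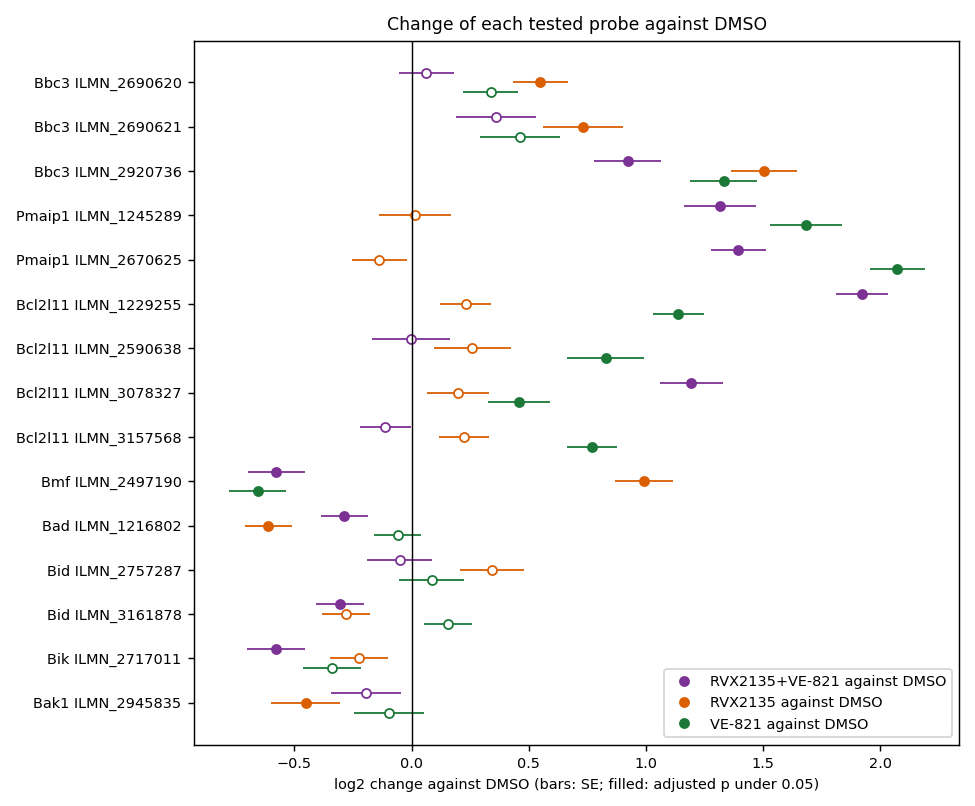
Log2 change relative to DMSO (x axis, bars SE) of each tested probe (y axis) with both drugs, RVX2135 and VE-821; filled points have an adjusted p under 0.05. Pmaip1 and Bcl2l11 have filled points for VE-821 but not for RVX2135, Bad for RVX2135 but not for VE-821, and Bmf for both on opposite sides of 0.

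Counted over probes, 9 of the 15 were called with both drugs relative to DMSO, 5 higher and 4 lower, where 58.5% of all tested probes were called, 28.6% higher and 29.9% lower. With RVX2135, 6 were called, 4 higher and 2 lower, against 28.1% of all tested probes, 14.0% higher and 14.2% lower. With VE-821, 8 were called, 7 higher and 1 lower, against 21.2% of all tested probes, 10.4% higher and 10.8% lower. Since 6 of the 7 rises with VE-821 came from the probes of Bcl2l11 and Pmaip1, these counts are not counts of independent genes. The median log2 change of the 15 probes was -0.00 with both drugs, 0.22 with RVX2135 and 0.46 with VE-821, beside -0.01, -0.00 and -0.02 over all tested probes. The share called with the combination was thus close to the background. Of the 15 probes, 5 passed the filter through 1 or 2 groups alone, namely both Pmaip1 probes, Bcl2l11 ILMN_3078327, Bid ILMN_2757287 and Bik. Both Pmaip1 probes and Bcl2l11 ILMN_3078327 passed only through the 2 groups with VE-821, so they had to be bright there. Their rises are among the 7 with VE-821 and among the 5 with both drugs. Bik passed through DMSO alone, so it had to be bright there, and it is among the 4 falls with both drugs. Part of the counts with VE-821 and with both drugs therefore rests on the filter. The median of 0.46 is the value of that Bcl2l11 probe.

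Between treatments, 11 of the 15 probes were called for the combination relative to RVX2135, 5 higher and 6 lower, against 49.1% of all tested probes, 24.1% higher and 25.1% lower. Relative to VE-821, 7 were called, 2 higher and 5 lower, against 48.7%, 24.5% higher and 24.3% lower. For RVX2135 relative to VE-821, 8 were called, 1 higher (Bmf) and 7 lower, against 24.4%, 12.5% higher and 11.9% lower. Both Pmaip1 probes and Bcl2l11 ILMN_3078327 are among the 5 rises over RVX2135. Both Pmaip1 probes are also among the 7 lower calls for RVX2135 relative to VE-821. These probes had to be bright in the groups with VE-821. Bid ILMN_2757287 and Bik are among the 6 falls relative to RVX2135. The Bid probe had to be bright with RVX2135, and Bik was below background in both groups. Part of these counts thus rests on the filter or on signal below background. The comparisons share their arrays with one another, so their counts are not independent.

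Whether the drugs added up was tested with the interaction, which is the log2 change with both drugs minus the sum of the log2 changes with each drug alone. It was called for 8 of the 15 probes, 1 higher and 7 lower, against 25.4% of all tested probes, 12.1% higher and 13.3% lower. A negative value means that the combination was lower than the sum of the single changes. All 3 Bbc3 probes were negative, led by ILMN_2920736, where the single changes summed to 2.84 and the combination reached 0.92 (interaction -1.91, SE 0.20, adjusted p = 9.49e-05). The others were -0.82 on ILMN_2690620 (adjusted p = 0.00484) and -0.84 on ILMN_2690621 (adjusted p = 0.026). Bmf was at -0.91 (SE 0.17, adjusted p = 0.00331), with single changes of 0.99 and -0.66 and a combined change of -0.58. The call on Bbc3 ILMN_2690621 was lost without DMSO replicate 1 (0.0973), RVX2135 replicate 1 (0.0858), RVX2135+VE-821 replicate 2 (0.0832) or VE-821 replicate 2 (0.0817), without a filter on dim probes (0.108) and with quantile normalization alone (0.135).

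The Bcl2l11 probes split again. ILMN_1229255 had a positive interaction of 0.55 (SE 0.15, adjusted p = 0.0227), with the combination at 1.92 and the single changes summing to 1.37, and ILMN_3078327 one of 0.54 (adjusted p = 0.0568). The interaction was negative on ILMN_3157568, at -1.11 (adjusted p = 0.000523), and on ILMN_2590638, at -1.09 (adjusted p = 0.00643, or 0.0669 with quantile normalization alone). The call on ILMN_1229255 was lost without DMSO replicate 2 (0.0712), RVX2135 replicate 1 (0.0519) or 2 (0.0588), RVX2135+VE-821 replicate 1 (0.0728) or VE-821 replicate 2 (0.0827).

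Pmaip1 had interactions of -0.54 on ILMN_2670625 (adjusted p = 0.0341) and -0.38 on ILMN_1245289 (adjusted p = 0.224). The call on the first was lost in 9 of the 15 alternative settings in which the probe was tested, among them without DMSO replicate 1 (0.0519) or 2 (0.112), RVX2135 replicate 2 (0.114), RVX2135+VE-821 replicate 1 (0.0513) or 2 (0.0854) and VE-821 replicate 2 (0.114). No interaction was called for Bad (0.38, adjusted p = 0.0667), Bid, Bik or Bak1.

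**Figure D4:**
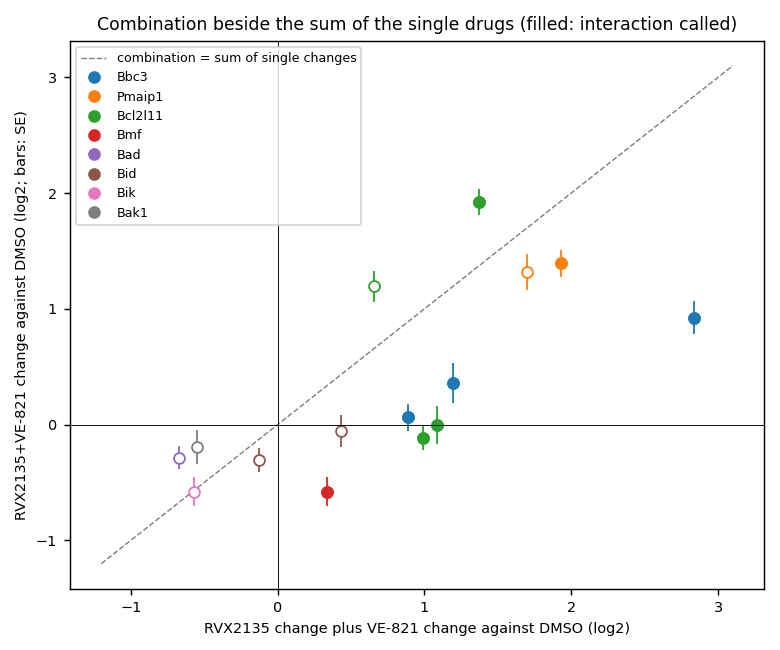
Log2 change with both drugs relative to DMSO (y axis, bars SE) against the sum of the log2 changes with each drug alone (x axis) for the 15 tested probes, coloured by gene; filled points have a called interaction and the dashed line marks equality. Bbc3 ILMN_2920736 lies farthest below the line, at 0.92 against 2.84, and Bcl2l11 ILMN_1229255 lies above it, at 1.92 against 1.37.

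For the 3 members with the largest change under the combination on their probe of highest mean intensity, the named genes with the most similar profile over the 8 arrays were listed by Pearson correlation, as a description. Pmaip1 ILMN_2670625 was most like Nupr1 (0.994), Tnfaip3 (0.994) and Cth (0.990). These rose with VE-821 by 3.82, 3.05 and 2.47 on the log2 scale, and stood at -0.07, -0.23 and 0.20 with RVX2135. Bbc3 ILMN_2920736 was most like Hyi (0.982), Rnaset2b and Ndufa6 (0.957), whose log2 changes with RVX2135 were 0.68, 0.46 and 0.34, well below the 1.50 of Bbc3. Bmf was most like Tecr (0.989), Cirbp (0.988) and Bckdha (0.988), and Cirbp stood at 1.24 with RVX2135 and -0.55 with VE-821.

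**Figure D5:**
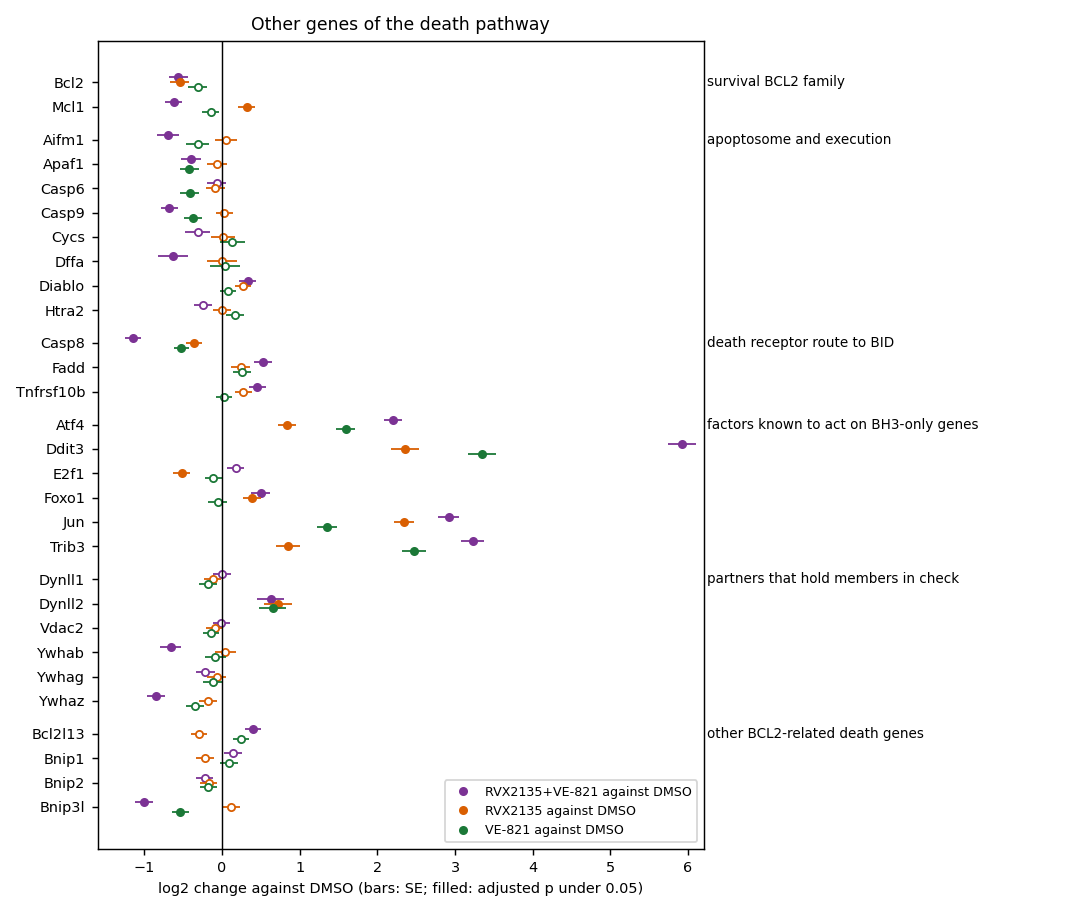
Log2 change relative to DMSO (x axis, bars SE) of the tested genes of 6 lists around the family (y axis), 1 probe per gene, with both drugs, RVX2135 and VE-821; filled points have an adjusted p under 0.05. Ddit3 reaches 5.92 with both drugs, while Casp8 is the lowest, at -1.15.

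The genes around the family were counted with 1 probe each, the one of highest mean intensity, and each count with both drugs stands beside the 58.5% of all tested probes called in that comparison. Of 9 survival BCL2 genes, 2 were tested, and both were lower with the combination. Mcl1, the survival protein that NOXA binds, read 11.31 and 11.21 with both drugs, 12.29 and 12.10 with RVX2135, 11.75 and 11.72 with VE-821, and 11.91 and 11.85 with DMSO. The combination arrays were the lowest and the RVX2135 arrays the highest. Mcl1 fell by 0.62 with both drugs (SE 0.11, adjusted p = 0.000425), with an interaction of -0.79 (adjusted p = 0.00374). Its change of 0.32 with RVX2135 (adjusted p = 0.0488) was lost whichever array was left out, at adjusted p = 0.053 to 0.247. Bcl2 was at least 1.27-fold lower with both drugs than with DMSO (adjusted p = 0.00193, or 0.276 with quantile normalization alone) and at least 1.25-fold lower with RVX2135 (adjusted p = 0.00648, or 0.078 without DMSO replicate 1 and 0.358 with quantile normalization alone).

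Of 9 genes listed as factors that act on BH3-only genes, among them the target gene Trib3, 6 were tested, and 5 rose with both drugs. Ddit3, which encodes the stress factor CHOP, read 11.86 and 11.75 with both drugs, 8.05 and 8.42 with RVX2135, 9.03 and 9.42 with VE-821, and 5.66 and 6.11 with DMSO, so no group overlapped another. Its log2 change was 5.92 with both drugs (SE 0.18, adjusted p = 6.54e-10), 2.35 with RVX2135 and 3.34 with VE-821, and the interaction of 0.23 was not called (adjusted p = 0.547). Atf4, which acts upstream of Ddit3, rose by 2.20, 0.84 and 1.59 in the same order of treatments, and Trib3, a target of both, by 3.23, 0.85 and 2.47. Jun, a subunit of AP-1, was below background with DMSO and at least 7.08-fold, 4.74-fold and 2.40-fold higher in that order. Foxo1, a forkhead factor, was at 0.50 with both drugs (adjusted p = 0.00392), 0.39 with RVX2135 (adjusted p = 0.0334) and -0.06 with VE-821 (adjusted p = 0.786). The RVX2135 call on Foxo1 was lost without DMSO replicate 1 (0.198) or 2 (0.0583), without RVX2135 replicate 1 (0.125) or 2 (0.0926), and under 2 other settings. The sixth, E2f1, was at 0.17 with both drugs (adjusted p = 0.183) and fell by 0.52 with RVX2135 (adjusted p = 0.00401).

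Downstream of the mitochondrion, 8 of 12 genes of the apoptosome and of execution were tested, and with both drugs 1 rose and 4 fell. The falls were Casp9, the initiator caspase of the apoptosome (-0.68, adjusted p = 0.00028), Aifm1 (-0.70, adjusted p = 0.00124), Dffa (-0.63, adjusted p = 0.0136) and Apaf1, the scaffold of the apoptosome (-0.40, adjusted p = 0.0159). The rise was Diablo, which encodes an inhibitor of caspase inhibitors (0.33). RVX2135 alone gave 0 calls in this list by limma, with 1 gene, Diablo, at an unadjusted p under 0.05, where 28.1% of all tested probes were called. With VE-821 a second probe of Apaf1 (-0.51, adjusted p = 0.0156) and of Casp6 (-0.53, adjusted p = 0.00555) was called lower in limma. On the 1 probe per gene counted here, VE-821 gave 3 falls, Apaf1, Casp6 and Casp9, where 10.8% of all tested probes were called lower. None of these 3 was called without DMSO replicate 1 (0.138 to 0.169), DMSO replicate 2 (0.0863 to 0.106) or VE-821 replicate 1 (0.169 to 0.224), and 1 was called without VE-821 replicate 2. The calls with both drugs on Apaf1, Dffa and Diablo were each lost when single arrays were left out, at up to 0.141 for Apaf1 without RVX2135+VE-821 replicate 1, 0.151 for Dffa without RVX2135+VE-821 replicate 2 and 0.102 for Diablo without RVX2135+VE-821 replicate 2, and the falls with both drugs numbered 2 without DMSO replicate 2. With 5 of 8 genes called, this list was close to the 58.5% of all tested probes.

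On the death receptor route, 3 of 8 genes were tested. With both drugs Casp8, the caspase that cleaves BID, fell by 1.15 (SE 0.10, adjusted p = 1.75e-06), and its adaptor Fadd (0.52, adjusted p = 0.00237) and the receptor gene Tnfrsf10b (0.45, adjusted p = 0.00377) rose. Casp8 was also lower with VE-821, at -0.52 (adjusted p = 0.00351), and with RVX2135, at -0.36 (adjusted p = 0.0196), the last of which was lost without DMSO replicate 1 (0.0627), DMSO replicate 2 (0.111) or RVX2135 replicate 2 (0.0984). Of 6 partners that hold members in check, all tested, 1 rose and 2 fell with both drugs. The falls were the 14-3-3 genes Ywhaz (-0.85, adjusted p = 5.99e-05) and Ywhab (-0.66, adjusted p = 0.00145), although the second Ywhaz probe was not called, and the rise was the dynein light chain gene Dynll2 (0.63, adjusted p = 0.00903, or 0.0861 without RVX2135+VE-821 replicate 2). Of 8 other BCL2-related death genes, 4 were tested with both drugs, where Bnip3l, a gene of mitophagy, fell by 1.00 (adjusted p = 1.65e-05) and Bcl2l13 rose by 0.40 (adjusted p = 0.00614, or 0.0515 without DMSO replicate 1).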

How the data were processed

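RNA of 8 samples of λ820 cells was hybridised to one-colour Illumina arrays, 2 per group, and groups and replicate numbers were read from the sample titles. The authors deposited non-normalized intensities on a linear scale, with values below 0 that show a background had already been subtracted, and for each probe and array a detection p-value, with no account of its computation in the files or labels. A second deposited table of intensities normalized by the authors served as an alternative and for the marker sums. Of tools, the submitters' processing notes name GenomeStudio, and they name no genome build.

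Probes were named through the platform annotation, which gave 1 symbol to 23978 probes and none to 1719. Of the named probes, 23962 took their current symbol through the Entrez identifier. In R 4.3.3, neqc of limma 3.58.1 removed background estimated through the detection p-values, set an offset of 16, applied quantile normalization and returned log2 intensities. Testing required detection (p-value under 0.05) on both arrays of 1 or more groups. All 8 arrays entered 1 linear model of group means, through lmFit and eBayes (4 residual and 7.45 prior degrees of freedom), giving 7 comparisons. Each p-value is two-sided, from limma's moderated test, and was adjusted by the Benjamini-Hochberg method over the 11761 tested probes of a comparison at 0.05. The number of arrays limits the precision. Bounds ("at least") are used where a probe was not above background on both arrays of a group.

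The members, the lists around the family and the rule for named genes (every member probe, up to 4 genes per list with the smallest adjusted p for the combination plus genes whose probes disagree, and 3 similar genes for each of 3 members) were chosen with earlier results of these data known. Of the genes named for probe disagreement alone, Cycs is not described. The same-numbered replicates did not deviate together (correlations of -0.02 to 0.16 between groups), so no replicate block was fitted in the reported results. Alternatives covered the authors' normalized values, normalization, filter, offset, variance trend, probes per gene, replicate block and each array left out in turn, and the fit was tested on simulated data. For the genes around the family these alternatives were added after the data were seen. The alternative without background correction, called quantile normalization alone, used a floor of 16 on the intensities, which flattens differences between dim probes. Protein sequences were not used here, so the planned search for the BH3 core was not run.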

Additional observations from a re-analysis of the deposited data

Results flagged for a closer look

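For 8 probes the effect of one drug differed with and without the other, by limma's test of the interaction on the log2 scale. The interaction was -1.91 on Bbc3 ILMN_2920736, -0.84 on ILMN_2690621 and -0.82 on ILMN_2690620. It was -0.91 on Bmf ILMN_2497190 and -0.54 on Pmaip1 ILMN_2670625. On Bcl2l11 it was 0.55 on ILMN_1229255, -1.11 on ILMN_3157568 and -1.09 on ILMN_2590638, so probes of 1 gene were set apart in opposite directions. The calls on Pmaip1 ILMN_2670625, Bbc3 ILMN_2690621 and Bcl2l11 ILMN_1229255 were lost when single arrays were left out, with adjusted p up to 0.114, 0.0973 and 0.0827 without VE-821 replicate 2, DMSO replicate 1 and VE-821 replicate 2. What separates the Bcl2l11 probes was not tested.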

How the results depend on the processing

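With 16 alternatives, the 1589 values recomputed for the 105 pairs of a member probe and a comparison turned no called change to the other direction. Quantile normalization alone used a floor of 16 on the intensities. In that setting the called differences of Bid ILMN_2757287 and Bik between the combination and RVX2135 were 0, with no direction left. The deposited intensities of both probes in these groups, from -1.13 to 15.1, all lay below that floor. Of the 1589 values, 1473 kept their side of the threshold, 82 fell short of it and 34 passed it anew. Of the 57 calls, 39 held in every setting that tested the probe. The cause of lost calls was not tested, except that leaving out an array leaves fewer samples.

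Keeping only probes detected on all arrays left 9 member probes. Of their values, 61 kept their side of the threshold, 0 fell short of it and 2 passed it anew. A single probe per gene left 8 member probes, whose 56 values all kept their side. Both alternatives tested fewer probes.

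Leaving out each array in turn, the member probes called numbered 7 to 9 with both drugs relative to DMSO, 4 to 6 with RVX2135, 7 to 10 with VE-821, 7 to 11 for the combination relative to RVX2135, 6 to 7 relative to VE-821, 6 to 8 for RVX2135 relative to VE-821 and 5 to 9 for the interaction. The lowest counts of members came without VE-821 replicate 2 for the interaction (5 against 8), without DMSO replicate 1 for RVX2135 (4 against 6) and without RVX2135+VE-821 replicate 2 for the combination relative to RVX2135 (7 against 11). Over all tested probes the calls numbered 5825 to 6907 (6881 on all arrays) for both drugs, 1874 to 3406 (3310) for RVX2135, 1167 to 2626 (2497) for VE-821, 4757 to 5665 (5780) and 4395 to 5687 (5733) for the combination relative to RVX2135 and to VE-821, 1767 to 2980 (2864) for RVX2135 relative to VE-821, and 2060 to 2699 (2989) for the interaction. The lowest counts for RVX2135, VE-821 and RVX2135 relative to VE-821 came without DMSO replicate 1, VE-821 replicate 2 and RVX2135 replicate 2.

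With the replicate number as a block, 102 values of member probes kept their side of the threshold, 0 fell short of it and 3 passed it anew. The block changed the call of Bid ILMN_2757287 (adjusted p = 0.0448 with RVX2135 and 0.0499 for the interaction) and of Pmaip1 ILMN_1245289 (0.0477 for the combination relative to VE-821), and no other member call.

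Signal over background limits the probes of Pmaip1, Bik, Bak1, Bid ILMN_2757287 and Bcl2l11 ILMN_3078327, whose changes near background are compressed by the offset. With an offset of 50 the rise of Bcl2l11 ILMN_3078327 with VE-821 was 0.22 (adjusted p = 0.0755). The Bbc3 probes ILMN_2690620 and ILMN_2690621 were detected on all 8 arrays but were also dim, at 5.07 to 5.77 and 5.12 to 6.16. On ILMN_2690620 the log2 change with RVX2135 ranged from 0.31 to 0.88 over the alternatives, so its size depends on the processing.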
